A study of Brassica oleracea var. italica with 5 samples.

Results

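Myrosinases hydrolyse glucosinolates when plant tissue is damaged, and the proteins described here act at or beside that step. Specifier proteins steer the unstable product toward nitriles, or toward epithionitriles in the case of the epithiospecifier protein, instead of isothiocyanates such as sulforaphane. The epithiospecifier modifier, a protein of the GDSL lipase family, lowers nitrile formation in *Arabidopsis*, and myrosinase-binding proteins are lectins of the jacalin family that were found in complexes with myrosinase in *Brassica* seeds.

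The members were chosen by their *Arabidopsis* loci and not by any measured value, though earlier results of these data were known. These are *ESP* (AT1G54040, epithiospecifier protein), *ESM1* (AT3G14210, epithiospecifier modifier), *NSP1* (AT3G16400), *NSP2* (AT2G33070), *NSP3* (AT3G16390), *NSP4* (AT3G16410) and *NSP5* (AT5G48180), the nitrile-specifier proteins, and *MBP1* (AT1G52040) and *MBP2* (AT1G52030), the myrosinase-binding proteins. Of these 9 loci, 8 had a unigene, out of 19441 unigenes in all, and *NSP3* was the locus with none. The *NSP1* unigene carries another symbol, ATMLP-470, in the annotation.

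The plants were wild-type broccoli of the cultivar Qingxiu, and 5 tissues were sequenced with the Illumina MiSeq, namely euphyllas of 11 day sprouts, which are their true leaves, seeds, and cotyledons of sprouts aged 3, 7 and 11 days. The seeds had been treated with NaClO and left on wet filter paper overnight, so they were imbibed and not dry. Equal weights of 3 biological replicates were mixed into each library, which leaves 1 library per tissue. Every comparison is therefore between libraries and has no replicate check, and tissue, age and library cannot be told apart.

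The libraries held between 6802615 mapped reads in euphyllas and 10312625 in 11 day cotyledons, and 17870 to 18319 unigenes had at least 1 read. A read count divided by the library's size factor is called the normalized value here, and 1 read is worth between 0.708 normalized units in seeds and 1.16 in euphyllas. Ratios between libraries carry an exact 95% interval that covers counting error only. These intervals are too narrow, because mapped reads outnumbered the trimmed read pairs in every library, so some fragments were counted more than once. Halving the counts for the interval changed no member call between neighbouring libraries. To be called, a unigene needed a difference of at least 2-fold, an interval excluding 1 and at least 20 reads over both libraries. The tissue labels fitted some of their markers better than others. All 8 seed reserve unigenes had their highest value in seeds. When 3 day cotyledons were set against seeds, all 6 photosynthesis unigenes tested were called higher. Of 10 leaf primordium and cell division unigenes, 8 were called higher in euphyllas than in 11 day cotyledons. Against seeds, euphyllas had 3 of these 10 called higher and 2 lower, and against 3 day cotyledons 4 and 0. By library of highest value, 5 of the 10 peaked in euphyllas and 3 in seeds. Of the 2 seed coat unigenes, 0 peaked in seeds, 1 in 7 day cotyledons and 1 in euphyllas. In bulk tissue, fewer cells of a type and less RNA per cell cannot be told apart.

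**Figure D1:**
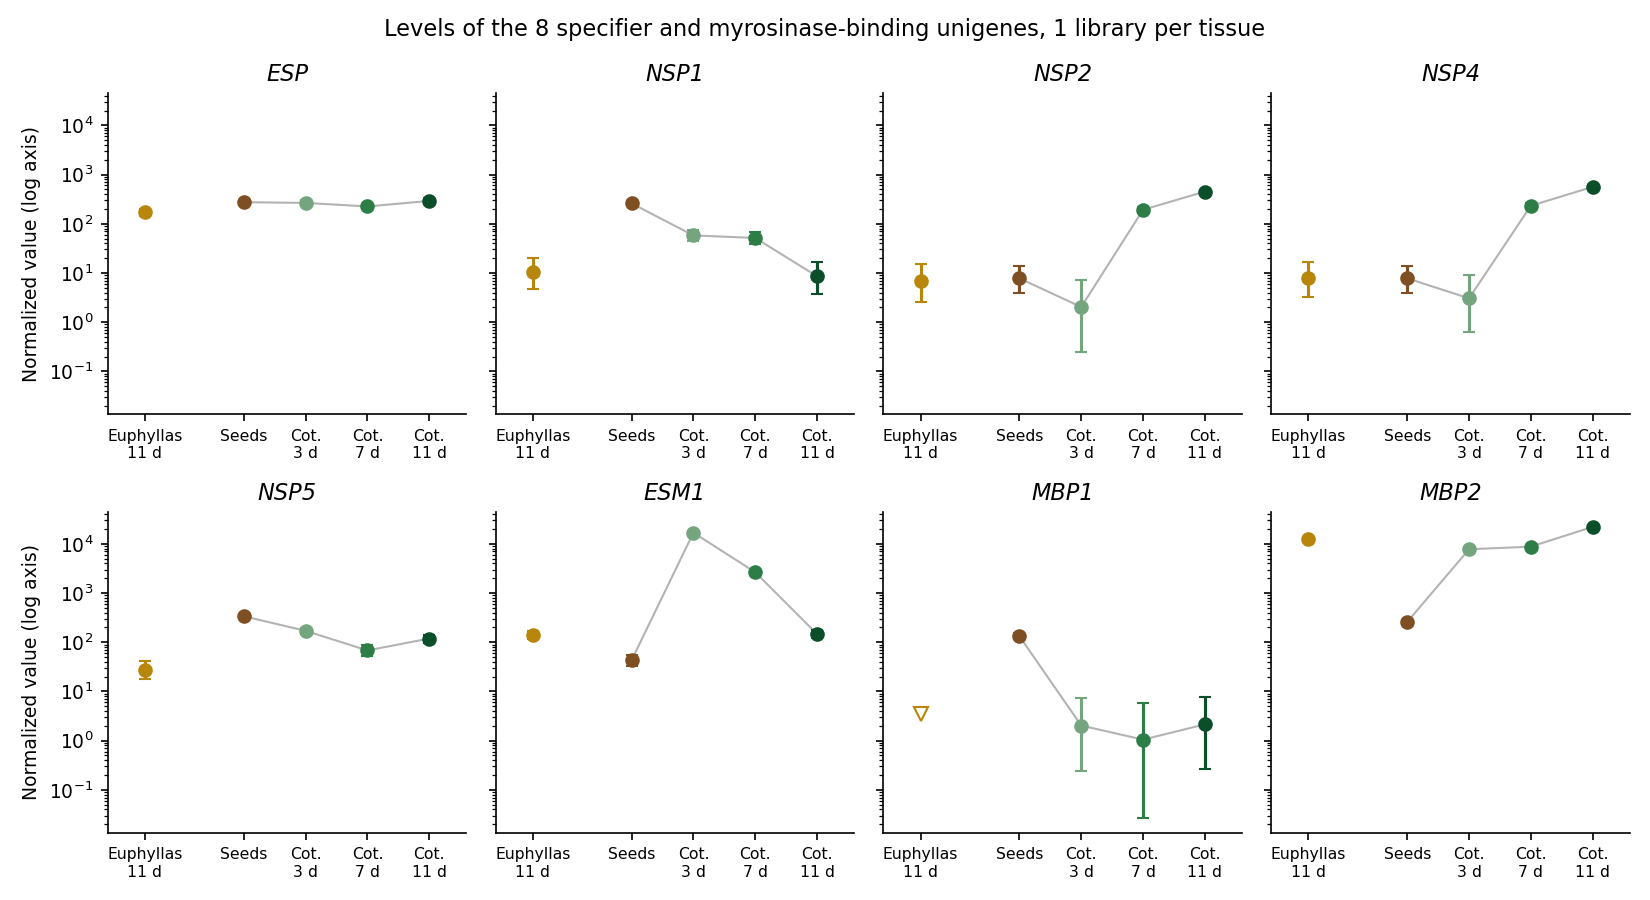
Normalized value (log axis) of each of the 8 unigenes in 11 day euphyllas, seeds, and 3, 7 and 11 day cotyledons, with 1 library per tissue. Bars are exact 95% Poisson intervals of the count, the open triangle for *MBP1* marks the value of 3 reads (3.47) in place of 0 reads, and the grey line joins seeds and cotyledons in order of age. *ESP* stayed between 172 and 292 while *ESM1* peaked at 16886 in 3 day cotyledons.

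*ESP* was the steadiest of the 8 unigenes. It had 149 reads in euphyllas, and 388, 261, 214 and 272 reads in seeds and in 3, 7 and 11 day cotyledons. The normalized values were 172 in euphyllas, and 275, 265, 225 and 292 in seeds and in 3, 7 and 11 day cotyledons. Its lowest and highest values were 0.76 apart on the log2 scale, a range smaller than that of all but 5.8% of the unigenes with enough reads to be compared. None of the 10 pairs of libraries gave a call for *ESP*. The neighbours in its order of levels, from 11 day cotyledons through seeds and 3 day to 7 day cotyledons, were not separated by their counting intervals. Euphyllas lay below 7 day cotyledons by 1.31-fold (1.05 to 1.62). This order depends on the scaling. By total reads, the ratio was 0.624 (0.519 to 0.751) in 7 day over 3 day cotyledons and 1.27 (1.06 to 1.52) in 11 day over 7 day cotyledons. In euphyllas over 11 day cotyledons it was 0.830 (0.675 to 1.02), and none of these was called. Euphyllas and 7 day cotyledons were not compared under that scaling. Divided by unigene length, *ESP* stood at the 69.4th to 79.5th percentile of all unigenes.

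*NSP1* and *NSP5* were highest in the seeds. In *Arabidopsis* both proteins promote simple nitriles, and *NSP1* joins a jacalin-like domain to the kelch repeats that *ESP* and *NSP5* consist of. *NSP1* had 9 reads in euphyllas, and 366, 57, 49 and 8 reads in seeds and in 3, 7 and 11 day cotyledons. It was 4.47-fold (3.37 to 6.01) lower in 3 day cotyledons than in seeds and 6.0-fold (2.82 to 14.7) lower in 11 day than in 7 day cotyledons, with a plateau between day 3 and day 7, where the values were 51.5 in 7 day and 58.0 in 3 day cotyledons. Euphyllas and 11 day cotyledons together held 17 reads of *NSP1*, too few to be compared.

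*NSP5* had 24 reads in euphyllas, and 477, 168, 65 and 111 reads in seeds and in 3, 7 and 11 day cotyledons. Its normalized value was 171 in 3 day cotyledons, against 338 in seeds. That ratio, 1.98-fold lower (1.65 to 2.37), fell just short of the 2-fold limit and was called when libraries were scaled by total reads. *NSP5* was then 2.50-fold (1.87 to 3.39) lower in 7 day than in 3 day cotyledons, and 11 day cotyledons exceeded 7 day cotyledons by 1.74-fold (1.27 to 2.41), which was not called. It was 4.29-fold (2.74 to 6.98) lower in euphyllas than in 11 day cotyledons and 12.2-fold (8.08 to 19.2) lower in euphyllas than in seeds.

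The unigenes named *NSP2* and *NSP4* had nearly no reads in euphyllas, seeds and 3 day cotyledons and far more in the older cotyledons. *NSP2* had 6 reads in euphyllas, and 11, 2, 183 and 421 reads in seeds and in 3, 7 and 11 day cotyledons. *NSP4* had 7 reads in euphyllas, and 11, 3, 221 and 524 reads in seeds and in 3, 7 and 11 day cotyledons. From day 3 to day 7 the ratio for *NSP2* was 94.5-fold (25.8 to 786) higher and that for *NSP4* 76.1-fold (25.7 to 372) higher in 7 day cotyledons, intervals widened by the 2 and 3 reads of the younger library. In 11 day cotyledons the levels were again 2.35-fold (1.97 to 2.81) and 2.42-fold (2.06 to 2.85) higher than in 7 day cotyledons for *NSP2* and *NSP4*. Euphyllas of 11 day sprouts stood 65.1-fold (29.7 to 178) lower than 11 day cotyledons for *NSP2* and 69.5-fold (33.5 to 174) lower for *NSP4*.

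The assembly put both unigenes into a single locus, a group of transcripts built from overlapping contigs. They were transcripts 1 and 5 of 8 of assembly locus 9518, and they were nearly equal in length, at 4249 bp for *NSP2* and 4237 bp for *NSP4*. Per kb, *NSP4* stood to *NSP2* as 1.17 in euphyllas, and as 1.0, 1.5, 1.21 and 1.25 in seeds and in 3, 7 and 11 day cotyledons. The *NSP4* unigene had more reads in 4 libraries and the same number in seeds, and its excess was beyond counting error in 11 day cotyledons alone (1.1 to 1.42). How reads that match both transcripts were assigned is not given in the sources used here, so the names *NSP2* and *NSP4* cannot be told apart by these counts.

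**Figure D2:**
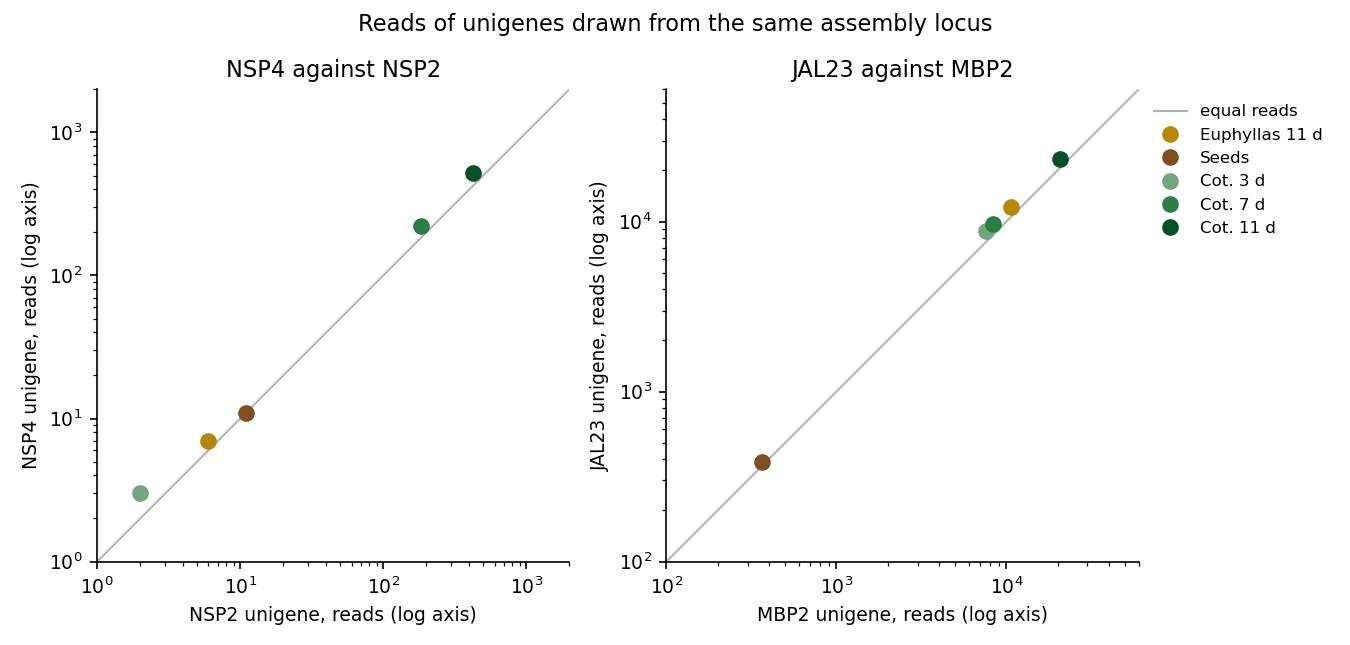
Reads (both axes log) of the *NSP4* unigene against the *NSP2* unigene and of the *JAL23* unigene against the *MBP2* unigene in the 5 libraries, with the line of equal reads. All points lie on or just above the line, with *NSP4* at 524 and *NSP2* at 421 reads and *JAL23* at 23315 and *MBP2* at 20655 reads in 11 day cotyledons.

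*ESM1*, which in *Arabidopsis* acts against nitrile formation, had the widest swing of the 8 unigenes together with a single peak in the youngest cotyledons. It had 121 reads in euphyllas, and 61, 16602, 2523 and 137 reads in seeds and in 3, 7 and 11 day cotyledons. The normalized values were 140 in euphyllas, and 43.2, 16886, 2650.1 and 147 in seeds and in 3, 7 and 11 day cotyledons. The 3 day cotyledons stood 391-fold (304 to 512) above the seeds. *ESM1* was 6.37-fold (6.11 to 6.65) lower in 7 day than in 3 day cotyledons and a further 18.0-fold (15.2 to 21.6) lower in 11 day than in 7 day cotyledons. Euphyllas and 11 day cotyledons did not differ beyond counting error (1.05-fold lower in euphyllas, 0.817 to 1.35), though both remained above seeds, by 3.24-fold (2.36 to 4.48) in euphyllas and 3.40-fold (2.50 to 4.68) in 11 day cotyledons. Scaled by total reads, euphyllas were above 11 day cotyledons by 1.34-fold (1.04 to 1.72), which was not called either.

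Per kb of unigene, *ESM1* stood at the 99.9th percentile of all unigenes in 3 day cotyledons, against the 33.1st percentile in seeds. Its percentile was 62.1 in euphyllas, 97.4 in 7 day cotyledons and 60.6 at day 11. The range of *ESM1* over the libraries, 8.58 on the log2 scale, was larger than that of 98.9% of unigenes. Its assembly locus had 15 transcripts, and a 286 bp fragment from the same locus, matched only in the nr database, had at most 5 reads in any library.

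The myrosinase-binding proteins moved in opposite ways between seeds and cotyledons. *MBP1* was a seed transcript with 0 reads in euphyllas, and 188, 2, 1 and 2 reads in seeds and in 3, 7 and 11 day cotyledons. It was 65.4-fold (17.9 to 544) lower in 3 day cotyledons than in seeds. With the 0 reads of euphyllas set to 3 reads, a normalized value of 3.47, *MBP1* was 38.4-fold lower there than in seeds. The exact interval of the ratio allows a difference as small as 30.9-fold. All comparisons of *MBP1* without the seeds rest on fewer than 20 reads and were not made.

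*MBP2* had 10709 reads in euphyllas, and 366, 7632, 8357 and 20655 reads in seeds and in 3, 7 and 11 day cotyledons. The normalized values were 12375 in euphyllas, and 259, 7762, 8778 and 22145 in seeds and in 3, 7 and 11 day cotyledons. The 3 day cotyledons stood 30.0-fold (27.0 to 33.4) above the seeds. It was nearly level between 7 and 3 day cotyledons (1.13-fold, 1.1 to 1.17), and 2.52-fold (2.46 to 2.59) higher in 11 day than in 7 day cotyledons. When libraries were scaled by total reads the small difference between 7 and 3 day cotyledons turned round, to a ratio of 0.834. Euphyllas stood 1.79-fold (1.75 to 1.83) below 11 day cotyledons, which is outside counting error but under the 2-fold limit, and 47.8-fold (43.1 to 53.2) above seeds. *MBP2* was the member with the most reads in every library except seeds, where *NSP5* and *ESP* had more and *NSP1* the same number, and 3 day cotyledons, where *ESM1* had more.

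The *MBP2* unigene shared assembly locus 186 with the unigene matched to *JAL23*, a jacalin-related lectin, as transcripts 28 and 35 of 36. *JAL23* had 12265 reads in euphyllas, and 386, 8768, 9749 and 23315 reads in seeds and in 3, 7 and 11 day cotyledons. Per kb it stood to *MBP2* as 1.19 in euphyllas, and as 1.1, 1.20, 1.22 and 1.18 in seeds and in 3, 7 and 11 day cotyledons. The ratio was near constant, and reads shared by both transcripts cannot be told apart in these counts. A 270 bp fragment of the same locus, matched in nr to a myrosinase-binding protein, had 0 to 12 reads.

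**Figure D3:**
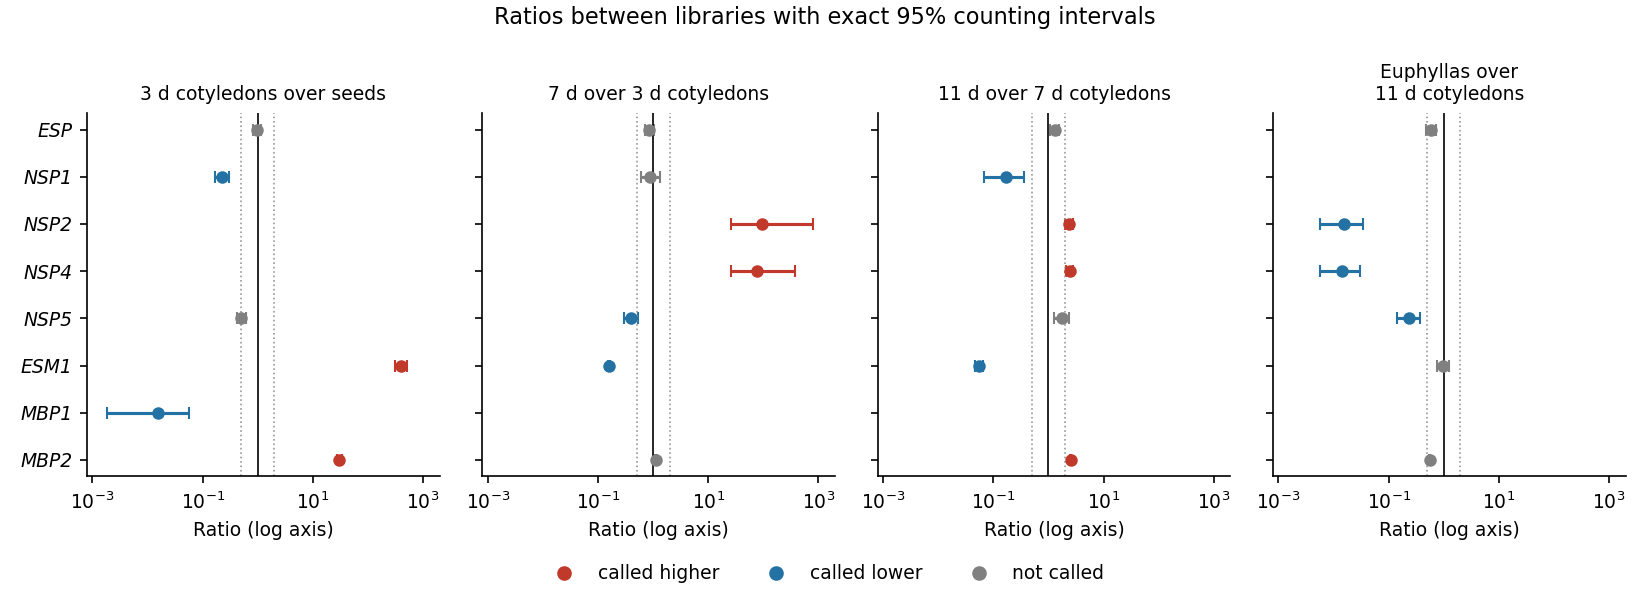
Ratio of normalized values (log axis) with exact 95% counting intervals for each unigene in the 4 comparisons of neighbouring libraries, coloured by call. Dotted lines mark 2-fold in each direction, unigenes with fewer than 20 reads are left out, and in the comparison of euphyllas with 11 day cotyledons every point lies to the left of 1 (scaled by total reads, *ESM1* lies to the right, at 1.34).

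Along the series from seeds to 11 day cotyledons, members were called in both directions in each comparison. In 3 day cotyledons against seeds, 2 of 6 members tested were called higher (*ESM1*, *MBP2*) and 2 lower (*NSP1*, *MBP1*), beside 22.1% higher and 22.5% lower among the 16455 unigenes tested. In 7 day against 3 day cotyledons, 2 of 7 were called higher (*NSP2*, *NSP4*) and 2 lower (*ESM1*, *NSP5*), beside 23.3% and 15.4% of all unigenes. In 11 day against 7 day cotyledons, 3 of 7 were higher (*NSP2*, *NSP4*, *MBP2*) and 2 lower (*ESM1*, *NSP1*), beside 19.4% and 18.4% of all unigenes. With *NSP2* and *NSP4* counted once, the higher calls were 1 in 7 day against 3 day cotyledons and 2 in 11 day against 7 day cotyledons.

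No member was called higher in euphyllas than in 11 day cotyledons and 3 of 6 were called lower (*NSP2*, *NSP4*, *NSP5*), beside 21.0% higher and 26.3% lower among all unigenes. Against 7 day cotyledons, euphyllas had 0 of 7 members higher and 5 lower, with 11.6% and 17.2% of all unigenes. Against 3 day cotyledons they had 0 of 5 higher and 3 lower, with 14.9% and 10.2% of all unigenes. These 3 comparisons share the euphylla library, so they are not separate evidence. The lower calls against 11 day and 7 day cotyledons include both *NSP2* and *NSP4*, whose names these counts cannot tell apart.

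The median log2 ratio of the members tested was -0.51 in 3 day cotyledons over seeds, -0.17 in 7 day over 3 day cotyledons, 0.79 in 11 day over 7 day cotyledons and -1.45 in euphyllas over 11 day cotyledons. Both *NSP2* and *NSP4* enter these medians, except in 3 day cotyledons over seeds, where they had too few reads. Over all unigenes the medians were -0.10, 0.04, -0.01 and -0.10 in the same order. Scaling by total reads moved these last medians to -0.34, -0.39, -0.04 and 0.38. The share of all calls that were higher was then 39.3%, and 49.6% with the size factors, in 3 day cotyledons over seeds. In 7 day over 3 day cotyledons it was 37.7%, and 60.1% with the size factors, and in euphyllas over 11 day cotyledons 63.9%, and 44.4% with the size factors. Every member call in these comparisons was made under that scaling too.

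By library of highest value, 3 of the 8 members peaked in seeds (*NSP1*, *NSP5*, *MBP1*), 1 in 3 day cotyledons (*ESM1*) and 4 in 11 day cotyledons (*NSP2*, *NSP4*, *MBP2* and, not beyond its counting error, *ESP*). None peaked in 7 day cotyledons or euphyllas. Among the 18104 unigenes with at least 20 reads, 13.2% peaked in euphyllas, and 29.3%, 15%, 16.0% and 26.6% in seeds and in 3, 7 and 11 day cotyledons.

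The relation of *ESM1* to *ESP* within a library does not depend on the scaling between libraries. Per kb, *ESM1* over *ESP* was 0.759 (0.592 to 0.972) in euphyllas, and 0.147 (0.110 to 0.193), 59.5 (52.6 to 67.5), 11.0 (9.58 to 12.7) and 0.471 (0.381 to 0.580) in seeds and in 3, 7 and 11 day cotyledons. *ESP* was thus the more abundant of the pair in seeds, 11 day cotyledons and euphyllas, and *ESM1* in 3 and 7 day cotyledons. As computed, the intervals of the 5 libraries do not overlap. Those of euphyllas and 11 day cotyledons nearly meet, and with some fragments counted more than once they are too narrow to separate this pair. The swing came from *ESM1*, because *ESP* was never called between libraries.

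**Figure D4:**
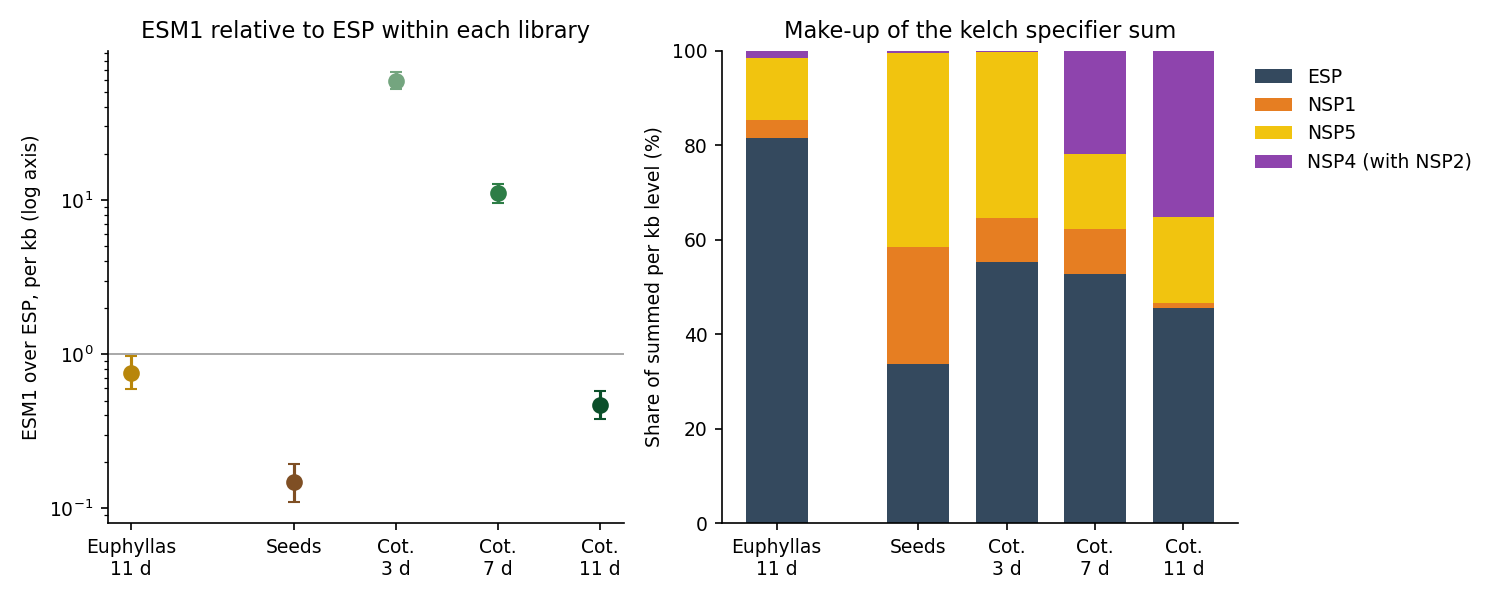
Left, *ESM1* over *ESP* per kb (log axis) within each library, with exact 95% counting intervals and a line at 1. Right, share of each kelch specifier in the summed per kb level of *ESP*, *NSP1*, *NSP5* and *NSP4*, where *ESP* made up 81.6% in euphyllas and 33.7% in seeds.

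The make-up of the kelch-type specifier transcripts differed by tissue. Their summed level, with *NSP2* and *NSP4* taken once as *NSP4*, was 124 normalized units per kb in euphyllas, and 479, 283, 251 and 378 in seeds and in 3, 7 and 11 day cotyledons. *ESP* made up 81.6% of the sum in euphyllas, and 33.7%, 55.2%, 52.8% and 45.5% in seeds and in 3, 7 and 11 day cotyledons. In seeds *NSP5* was ahead of *ESP* with 41.1% and *NSP1* held 24.8%. In 11 day cotyledons *NSP4* held 35.1%, against 0.383% in seeds, and *NSP1* was down to 1.04%. The shares in 7 and 11 day cotyledons depend on leaving out the *NSP2* unigene. In 11 day cotyledons it stood at 106 per kb, beside 133 for *NSP4* and 172 for *ESP*.

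Within libraries the per kb order between these specifiers was outside the computed intervals in most cases. *NSP5* over *ESP* per kb was 0.160 (0.0991 to 0.247) in euphyllas, and 1.22 (1.06 to 1.40), 0.638 (0.522 to 0.777), 0.301 (0.224 to 0.399) and 0.404 (0.321 to 0.506) in seeds and in 3, 7 and 11 day cotyledons. *NSP4* over *ESP* was 0.0188 (0.00744 to 0.0397) in euphyllas, against 0.772 (0.665 to 0.897) in 11 day cotyledons. The order in 11 day cotyledons depends on the division by length, since *NSP4* had 524 reads there and *ESP* 272, a ratio of 1.93. The intervals here cover counting error only and take unigene length as the length from which reads came.

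*MBP2* was also set against *TGG2*, the classical myrosinase with the most reads over the 5 libraries together. In seeds *TGG1* had more reads than *TGG2*, at 78 against 54. *TGG2* had normalized values of 4958 in euphyllas, and 38.2, 1703, 1590 and 818 in seeds and in 3, 7 and 11 day cotyledons. Per kb, *MBP2* over *TGG2* was 1.52 (1.47 to 1.57) in euphyllas, and 4.12 (3.09 to 5.60), 2.77 (2.63 to 2.93), 3.36 (3.18 to 3.55) and 16.5 (15.3 to 17.7) in seeds and in 3, 7 and 11 day cotyledons. The *MBP2* unigene was ahead in all 5 libraries, with the widest margin in 11 day cotyledons and the smallest in euphyllas. Reads that it shares with *JAL23* cannot be told apart here either. *ESM1* over *TGG2* was 0.0335 (0.0278 to 0.0402) in euphyllas, against 11.8 (11.2 to 12.4) in 3 day cotyledons.

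The lengths of the member unigenes were set against those of the *Arabidopsis* genes they match, whose deposited length is that of the gene with its introns. In 5 of 8 members (62.5%) the unigene was longer than the gene, against 6376 of the 18151 unigenes matched to a nuclear *Arabidopsis* locus (35.1%). These 5 include both *NSP2* and *NSP4*, which come from the same assembly locus. The median ratio of unigene to gene length was 1.12 in the members and 0.859 in all matched unigenes. *NSP4* had the highest ratio, 1.66 (4237 against 2549 bp), followed by *NSP2* with 1.47 (4249 against 2882 bp), at the 93.7th and 89.9th percentile of all ratios. Among the other members *NSP5* was 1713 bp against 1489 bp, *MBP2* 3548 against 3148 bp and *MBP1* 2660 against 2407 bp.

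*ESM1* (1815 against 1980 bp) and *NSP1* (2181 against 2459 bp) were slightly shorter than their genes. *ESP* stood apart with 1697 bp against a gene of 3234 bp, a ratio of 0.525 at the 13.6th percentile. Of the 8 members, 4 shared their assembly locus with another unigene, against 2802 of the 18151 matched unigenes.

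**Figure D5:**
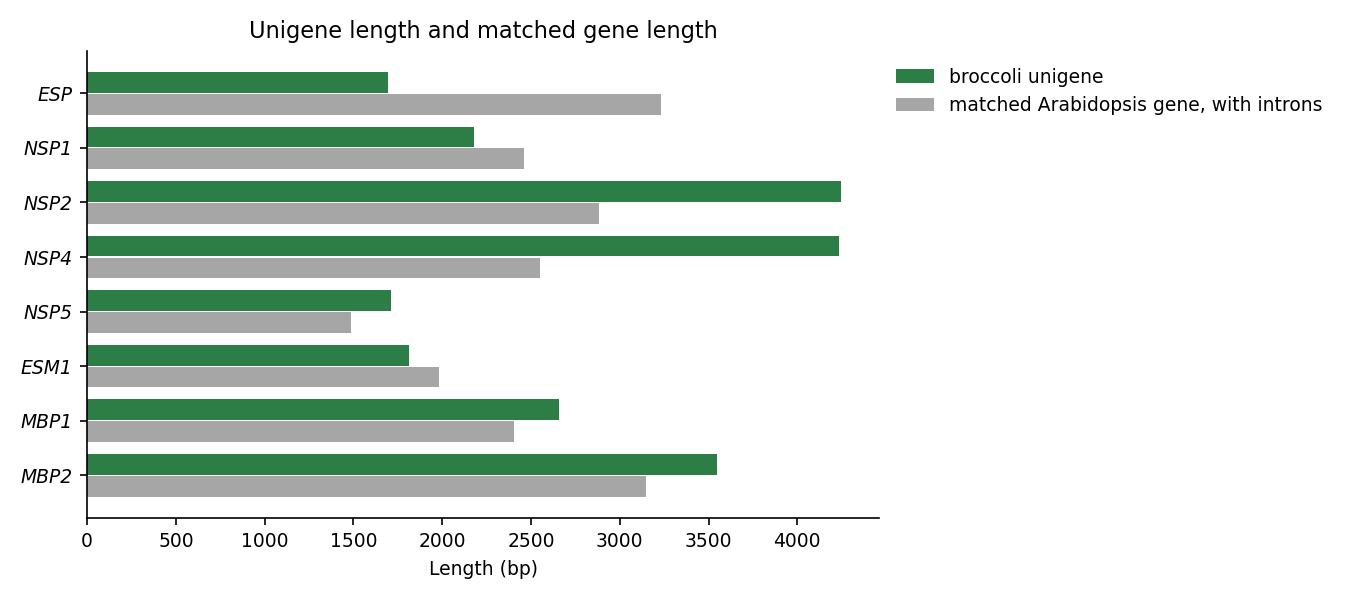
Length in bp of each broccoli unigene (green) and of the matched *Arabidopsis* gene with its introns (grey). The unigenes of *NSP2*, *NSP4*, *NSP5*, *MBP1* and *MBP2* are longer than the gene, and the *ESP* unigene at 1697 bp is shorter than its gene of 3234 bp.

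In *Arabidopsis* several members are neighbours, by the positions in the annotation, whose genome build is not given in the sources used here. *MBP2* lies on chromosome 1 from 19345940 to 19349088 and *MBP1* from 19350375 to 19352782, both on the minus strand and 1287 bp apart. *NSP1* (chromosome 3, 5566086 to 5568545) and *NSP4* (5571992 to 5574541) lie on the plus strand, 3447 bp apart. *ESM1* is on the same chromosome at 4729823 to 4731803, also on the plus strand. *ESP* is on chromosome 1 at 20170715 to 20173949, *NSP2* on chromosome 2 at 14028282 to 14031164 and *NSP5* on chromosome 5 at 19540937 to 19542426, all on the minus strand. The unigenes matched to these *Arabidopsis* neighbours did not share a profile. *MBP1* had its reads in seeds and *MBP2* in sprouts, and *NSP1* was highest in seeds and *NSP4* in 11 day cotyledons. Whether the broccoli genes are neighbours is not shown by these positions. The counts also do not tell *NSP4* apart from *NSP2*, or the reads that *MBP2* shares with *JAL23*.

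The annotation listed 10 unigenes under glucosinolate catabolic process, and 6 of them were *ESP*, *ESM1*, *NSP1*, *NSP2*, *NSP4* and *NSP5*. All 4 unigenes under nitrile biosynthetic process were nitrile-specifier proteins. *MBP2* was the only unigene under thioglucosidase binding and the only member among 286 unigenes under response to wounding, and *ESP* the only member among 234 under response to jasmonic acid. These terms come from the matched *Arabidopsis* genes, so they were not measured in broccoli.

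The unigenes with the most similar profiles were found by the root mean square difference of log2 values centred on their mean over the 5 libraries, among 13735 matched unigenes with at least 200 reads. For *ESP* the nearest were the endoplasmic reticulum retention receptor gene AT4G38790, the pyruvate dehydrogenase subunit gene AT1G59900 and AT3G08640, all with a difference of 0.07, which is the flat profile of many unigenes. Among the nearest to *NSP1* were the nitrilase gene *NIT1* (0.34) and the transporter gene *AtOCT4* (0.50). *NIT1*, whose product converts nitriles to acids, had 56 reads in euphyllas, and 1747, 232, 236 and 71 reads in seeds and in 3, 7 and 11 day cotyledons. Like *NSP1* it was highest in seeds, nearly level between 3 and 7 day cotyledons, and lowest in the tissues of 11 day sprouts.

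The profile of *NSP5* was closest to those of the serine carboxypeptidase-like genes *scpl5* (0.23) and *scpl3* (0.25) and to that of AT3G50340 (0.27). After each other (0.14), *NSP2* and *NSP4* were closest to *PXMT1*, a methyltransferase gene, at 0.52 and 0.42, followed by the respiratory burst oxidase gene *RHD2* for *NSP2* (0.54) and the phytosulfokine precursor gene *ATPSK2* for *NSP4* (0.56). *PXMT1* had 7 reads in euphyllas, and 14, 8, 233 and 790 reads in seeds and in 3, 7 and 11 day cotyledons. The nearest unigene to *ESM1* was the early light-induced gene *ELIP2* at 0.99 (Pearson's r 0.976 over the 5 libraries), a larger difference than for the other members, which have narrower ranges. *ELIP2* had 29 reads in euphyllas, and 23, 1166, 182 and 14 reads in seeds and in 3, 7 and 11 day cotyledons. *MLP328* (1.18) and *PGP13* (1.26) came after it. *MBP2* was nearest to *JAL23* of its own assembly locus (0.05), then to the methyl esterase gene *ATMES10* (0.21) and the photosystem II protein gene AT3G56650 (0.22).

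The enzymes before and after the specifier step were compared next. For every list below, the shares called over all unigenes are the background, and no list was tested against them. They were 22.1% higher and 22.5% lower in 3 day cotyledons over seeds, and 23.3% and 15.4% in 7 day over 3 day cotyledons. In 11 day over 7 day cotyledons they were 19.4% and 18.4%, and in euphyllas over 11 day cotyledons 21.0% and 26.3%. Among 6 loci of myrosinases and related beta-glucosidases, 4 had a unigene. Their calls were 1 higher and 1 lower of 4 tested in 3 day cotyledons over seeds, 0 and 0 of 3 in 7 day over 3 day cotyledons, 1 and 0 of 3 in 11 day over 7 day cotyledons, and 1 and 1 of 3 in euphyllas over 11 day cotyledons. *PYK10*, a beta-glucosidase of endoplasmic reticulum bodies, had a normalized value of at most 2.14 in euphyllas and cotyledons, against 759 in seeds, a seed pattern like that of *MBP1*. *PEN2*, which cleaves indolic glucosinolates, reached 2437 in 11 day cotyledons, against 279 in 7 day cotyledons.

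All 4 nitrilases had a unigene. *NIT2* was the most abundant, with 4913 in euphyllas, and 3912, 10668, 19601 and 7642 in seeds and in 3, 7 and 11 day cotyledons. *NIT4*, a cyanoalanine nitrilase, was called lower in 3 day cotyledons (15.3) than in seeds (89.2) and higher in 7 day cotyledons (888) than in 3 day cotyledons.

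Of the relatives of *ESM1* in the GDSL family, 1 of 6 had its highest value in 3 day cotyledons. All 6 listed had a unigene, and 1 was called higher and 3 lower in 3 day cotyledons over seeds, 1 and 2 of 4 in 7 day over 3 day cotyledons, 4 and 1 of 5 in 11 day over 7 day cotyledons, and 1 and 4 of 5 in euphyllas over 11 day cotyledons. AT1G54020 had a normalized value of 2321 in euphyllas, and 43.9, 255, 1586 and 17736 in seeds and in 3, 7 and 11 day cotyledons, so it was most abundant in the tissue where *ESM1* stood at 147. *MVP1*, a relative that acts on endomembrane traffic, was also highest in 11 day cotyledons (2065), and *GLL22* was a seed transcript with 20.8 to 105 in euphyllas and cotyledons, against 2973 in seeds.

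Other jacalin lectins, the family of *MBP1* and *MBP2*, had a unigene for 16 of 33 loci. In 3 day cotyledons over seeds 3 were called higher and 6 lower of 12 tested, in 7 day over 3 day cotyledons 6 and 1 of 8, in 11 day over 7 day cotyledons 4 and 3 of 9, and in euphyllas over 11 day cotyledons 1 and 6 of 9. These counts include *JAL23*. *JAL35* peaked in 7 day cotyledons with 3648, against 309 in 3 day cotyledons, and AT3G21380 had 807 in seeds, 11.2 in 3 day and 1069 in 7 day cotyledons.

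Glucosinolate synthesis genes gave a different count for each class. Of 25 aliphatic loci 12 had a unigene, with 4 higher and 2 lower of 11 in 3 day cotyledons over seeds, 4 and 2 of 12 in 7 day over 3 day cotyledons, 2 and 6 of 11 in 11 day over 7 day cotyledons, and 4 and 2 of 10 in euphyllas over 11 day cotyledons. Of 16 indolic loci 15 had a unigene, with 0 and 7 of 14, 13 and 2 of 15, 6 and 1 of 14, and 0 and 13 of 14 in the same comparisons. The 3 transporter unigenes (*GTR1*, *GTR2*, *GTR3*) were all called higher in 11 day than in 7 day cotyledons and all lower in euphyllas than in 11 day cotyledons, the directions of *NSP2* and *NSP4*.

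Jasmonate and wound markers were higher in 11 day than in 7 day cotyledons, as were *NSP2*, *NSP4* and *MBP2*, while *ESM1* and *NSP1* were lower. Of 10 loci 8 had a unigene, and all 8 were called higher in 11 day than in 7 day cotyledons (median log2 2.72) and all 8 lower in euphyllas than in 11 day cotyledons (median log2 -3.21). Their summed normalized level was 5855 in euphyllas, and 1367, 3974, 7106 and 55332 in seeds and in 3, 7 and 11 day cotyledons. The part of this in the levels of *MBP2*, *NSP2* and *NSP4* in 11 day cotyledons was not tested.

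Seed reserve markers were highest in seeds, as were *MBP1*, *NSP1* and *NSP5*. Their summed level over 8 unigenes of 12 loci was 4.62 in euphyllas, and 3094, 69.2, 26.3 and 36.5 in seeds and in 3, 7 and 11 day cotyledons. In 3 day cotyledons *MBP1* was 65.4-fold lower than in seeds and *NSP1* only 4.47-fold lower. The part of the seed reserve markers in the seed levels of *MBP1*, *NSP1* and *NSP5* was not tested. Of the seed coat markers 2 of 4 loci had a unigene, and their summed level was 512 in euphyllas, and 286, 218, 335 and 338 in seeds and in 3, 7 and 11 day cotyledons. *FAMA*, the regulator that gives rise to myrosin cells, where *Arabidopsis* myrosinases are stored, had 181 in euphyllas, and 115, 161, 127 and 178 in seeds and in 3, 7 and 11 day cotyledons and was called in none of the 4 comparisons. It was the exception among the 5 myrosin and guard cell markers with a unigene, of 6 loci, since the other 4 (*TMM*, *SCRM*, *MYB60*, *KAT1*) were each called in at least 1 comparison. As a list they had 2 called higher and 0 lower in 3 day cotyledons over seeds, 1 and 1 in 7 day over 3 day cotyledons, 0 and 1 in 11 day over 7 day cotyledons, and 2 and 2 in euphyllas over 11 day cotyledons. *SCRM*, a partner of *FAMA*, had 186 in euphyllas, and 260.4, 162, 79.8 and 68.6 in seeds and in 3, 7 and 11 day cotyledons, and was called lower in 7 day than in 3 day cotyledons and higher in euphyllas than in 11 day cotyledons.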

How the data were processed

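RNA of 5 tissues was sequenced as 1 library each. The authors trimmed the reads, assembled them with Velvet and Oases, named unigenes by their best *Arabidopsis* or nr match, mapped reads with Bowtie and scaled them with DESeq (versions not given in the sources used here). As deposited in 10 tables, 1 per pair of libraries, the count columns hold raw mapped reads per unigene. The normalized signal is, as deposited, each count over the DESeq size factor of its library, and 0 values differed between tables of the same library. Unigene lengths and positions were taken as deposited. The 20 RPKM columns, and the authors' log2 ratios, p-values and FDR, were not used.

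Ratios of normalized values carry an exact conditional binomial interval (Clopper-Pearson, 95%). In every library the mapped reads outnumbered the trimmed read pairs that the authors reported. Some fragments were therefore counted more than once, and the intervals are too narrow. A call needed a 2-fold ratio, an interval excluding 1 and 20 reads over the 2 libraries. Where a library had 0 reads, the fold was given with a floor of 3 reads in its place. Log2 ratios of lists used a pseudocount of 1. With 1 library per tissue no test, p-value or SD was possible. Genes were named by a rule that takes all members, the 3 unigenes of each other list with the most reads, and the 3 nearest profiles of each member with at least 200 reads. 1 of these nearest profiles is not reported here. The members and the 14 other lists were chosen with earlier results of these data known. Alternatives covered scaling by total reads or by TMM (edgeR 4.0.16), a 99% interval, halved counts, a 4-fold limit, no minimum or 50 reads, and reads summed per locus. The calls were checked on simulated Poisson counts with 4-fold changes. Those counts hold no spread between samples, no fragment counted more than once and no reads shared between transcripts. The check therefore covers the calculation only. Python 3.11.15, scipy 1.17.1 and R 4.3.3 were used.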

Additional observations from a re-analysis of the deposited data

How the results depend on the processing

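The 32 ratios of the 8 members between neighbouring libraries were recomputed under 8 alternatives. Of these 256 values 251 kept their side of the calling limit, 4 calls were lost and 1 was gained. The 4 calls were lost at a 4-fold limit (*NSP5* in 7 day over 3 day cotyledons, and *NSP2*, *NSP4* and *MBP2* in 11 day over 7 day cotyledons), so that 2 members were called in 11 day over 7 day cotyledons in place of 5. The gain was *NSP5* in 3 day cotyledons over seeds, scaled by total reads (ratio 0.430). Of uncalled ratios, 2 changed direction under total reads (*MBP2* in 7 day over 3 day cotyledons, *ESM1* in euphyllas over 11 day cotyledons) and 1 under TMM (*ESP* in 3 day cotyledons over seeds, ratio 1.02). At 4-fold the calls over all unigenes were 3257 in place of 7341 in 3 day cotyledons over seeds, 2577 in place of 6310 in 7 day over 3 day cotyledons, 2397 in place of 6191 in 11 day over 7 day cotyledons, and 3411 in place of 7712 in euphyllas over 11 day cotyledons, by the limit's own construction. Without division by length 12 of 40 ranks of members within a library moved. The nearest profiles depended on the measure: with Pearson's r, 3 of 7 members kept none of their 3 nearest unigenes and 4 kept 1. *NSP2* and *NSP4* counted once was chosen after seeing the data. No replicate could be left out, and no paired analysis was possible because each tissue has 1 library. Depth limits *NSP2*, *NSP4* and *MBP1* most, with 3 or fewer reads in 3 day cotyledons.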

Other observations

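The endoplasmic reticulum body factors, which were not set against the members above, differed from each other between seeds and cotyledons. *NAI2*, needed to form these bodies in *Arabidopsis*, had 1 read in euphyllas, and 628, 0, 0 and 4 reads in seeds and in 3, 7 and 11 day cotyledons. *NAI1*, the transcription factor of the same bodies, had 66 reads in euphyllas, and 27, 6, 96 and 1555 reads in seeds and in 3, 7 and 11 day cotyledons. *NAI1* was called higher in 7 day than in 3 day cotyledons and in 11 day than in 7 day cotyledons, and lower in euphyllas than in 11 day cotyledons.

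*TGG1*, another classical myrosinase that was named after its values were seen, had 115 reads in euphyllas, and 78, 42, 71 and 104 reads in seeds and in 3, 7 and 11 day cotyledons, and was called in none of the 4 comparisons. The stomatal regulator *TMM* had 517 reads in euphyllas, and 36, 432, 224 and 51 reads in seeds and in 3, 7 and 11 day cotyledons.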
